A study of Homo sapiens with 12 samples.

Results

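The comparison described here is the difference between RCC4 and UMRC2, established human kidney cancer cell lines, in the transcript response to activated FoxO1 and FoxO3. All 12 arrays of the series entered it, as 6 pairs of a 4-hydroxytamoxifen (4OHT) array and its vehicle array. For each isoform and line the log2 response (4OHT minus vehicle) was taken, the response of the matching empty vector (EV) line was subtracted, and the UMRC2 value was then subtracted from the RCC4 value. This line difference was at least log2 1, a 2-fold gap, for both isoforms in 653 of 14283 genes tested (4.57%), whose response was higher in RCC4. It was log2 -1 or less for both isoforms in 719 genes (5.03%), whose response was lower in RCC4. These counts come from the values that chose the genes and describe them without a test. The arrays read bulk RNA, so fewer responding cells and a smaller response per cell cannot be told apart.

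FoxO proteins are transcription factors that insulin and growth factor signalling restrains: AKT phosphorylates them and keeps them in the cytoplasm, and without that phosphorylation they enter the nucleus and activate genes of cell cycle exit, cell death, insulin signalling and stress defence. In clear cell kidney cancer FoxO activity is commonly low, and the PI3K and AKT pathway is often active. Which FoxO targets respond varies with cell type, since binding depends on the chromatin and partner factors already present.

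The FoxO1 and FoxO3 lines of RCC4 and of UMRC2 stably carried FoxO1(TA)ERT2 or FoxO3(TA)ERT2, in which 3 AKT phosphorylation sites are mutated to alanine and FoxO is joined to the T2-modified estrogen receptor (ERT2). The EV lines, labelled empty vector, are described as carrying the ERT2 moiety alone. Every line was grown under puromycin selection and received 100 nM 4OHT, which moves the fusion into the nucleus, or ethanol as vehicle for 12 h. Each of the 12 combinations was measured once on a Human Genome U133 Plus 2.0 array, so no group has a replicate array, and each construct is represented by 1 engineered line per parent line. Both parent lines are known to lack functional VHL, and the study describes them as low in their own FoxO1 and FoxO3.

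Facts of the arrays touch every line difference. The fusion transcript, read through 5 of 9 ESR1 probe sets, had a median vehicle level of log2 9.22 in RCC4 FoxO1 and 12.49 in RCC4 FoxO3, against 12.29 in UMRC2 FoxO1 and 13.23 in UMRC2 FoxO3, so the RCC4 FoxO1 line carried the least of the fusion lines. The same probe sets read 5.28 with vehicle and 5.24 with 4OHT in RCC4 EV, and 4.63 and 5.79 in UMRC2 EV. All were under the array median of 6.67. An ERT2 transcript was thus not seen in the EV arrays by these probe sets, which were chosen for a rise over EV. Whether EV subtraction removes effects of 4OHT-bound ERT2 was not tested. Spike-in probe sets of the deposited arrays had a geometric mean intensity of 4212 to 4699 in 5 RCC4 arrays and 2515 in the RCC4 FoxO3 array with 4OHT, against 2239 to 2463 in the 6 UMRC2 arrays. The spike-in level and the parent line therefore cannot be told apart, and the RCC4 FoxO3 pair spans both levels. The labels do not say what set the spike-in level. The part of fusion dose and spike-in level in the results below was not tested. PAX8, KRT8, KRT18 and VIM, expressed in kidney carcinoma cells, were above the array median in all 12 arrays, PAX2 in 11 and CDH6 in 10. Of the 12 markers of blood, endothelium, fibroblast and liver, CD14 and CDH5 were at the floor in every array, PTPRC, VWF, ALB and APOA2 never passed the median, HBB, PECAM1, COL1A1 and DCN passed it in all 12 arrays, CD3E in 9 and PDGFRB in 1.

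FoxO proteins bind GTAAACA, the DAF-16 family binding element, and CAAAACA, the insulin response element, and both motifs were searched on both strands in RefSeq windows (GRCh38.p14) of 250 bases before to 50 bases after each gene's start. Below are the 250 bases before the start of 3 known FoxO targets whose response differed between the lines and whose window held a motif. They run 5′ to 3′ on the gene's strand with the match in capitals: DEPP1 at chr10:44978810-44979059 on the minus strand, BCL2L11 at chr2:111120664-111120913 on the plus strand and IRS2 at chr13:109786584-109786833 on the minus strand.
DEPP1: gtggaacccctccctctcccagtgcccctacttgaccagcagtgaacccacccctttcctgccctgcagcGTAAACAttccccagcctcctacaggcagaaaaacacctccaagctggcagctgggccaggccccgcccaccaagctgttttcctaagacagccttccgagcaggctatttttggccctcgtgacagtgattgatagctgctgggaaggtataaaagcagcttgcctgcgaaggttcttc
BCL2L11: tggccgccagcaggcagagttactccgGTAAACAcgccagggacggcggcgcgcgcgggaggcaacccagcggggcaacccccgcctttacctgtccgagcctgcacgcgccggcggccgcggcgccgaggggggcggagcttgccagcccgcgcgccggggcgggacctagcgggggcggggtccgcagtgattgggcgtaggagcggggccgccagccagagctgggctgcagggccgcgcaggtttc
IRS2: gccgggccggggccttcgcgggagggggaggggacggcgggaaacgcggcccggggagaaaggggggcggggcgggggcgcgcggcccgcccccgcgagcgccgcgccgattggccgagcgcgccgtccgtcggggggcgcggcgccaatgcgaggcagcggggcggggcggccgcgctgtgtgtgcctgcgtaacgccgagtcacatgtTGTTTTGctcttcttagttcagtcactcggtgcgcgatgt
The DEPP1 and BCL2L11 windows held GTAAACA in the gene's direction, beginning 180 and 223 bases before the start, and the IRS2 window held CAAAACA on the opposite strand, 40 bases before the start. Among 11454 tested genes with a window, 2.51% held GTAAACA and 3.31% held CAAAACA. The same shares were 3.29% and 3.90% of 487 genes with the higher response in RCC4, and 3.98% and 4.36% of 527 genes with the lower response. A match is a description of letters and says nothing of binding in either line.

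Most genes past the rule were dim, and dim genes also differed between the lines in the EV pairs, where no FoxO was activated. The mean level over the 12 arrays was under log2 8 in 534 of the 653 higher genes (81.8%) and 572 of the 719 lower genes (79.6%), against 36.2% of all genes tested. Among higher genes with another probe set above the array median, such a probe set had the opposite sign in 35 of 88 (39.8%). The same held in 27 of 95 lower genes (28.4%), beside 52.5% of all genes with another such probe set. The EV response alone differed between the lines by log2 1 or more in 1453 genes (10.2%). That EV difference was opposite in sign to the FoxO line difference, and at least log2 1 in size, in 360 of the higher genes (55.1%) and 371 of the lower genes (51.6%). MYOZ3, a muscle Z-disc protein gene, is 1 of them: its EV levels were 6.18 with 4OHT and 7.63 with vehicle in RCC4 and 8.21 with 4OHT and 5.85 with vehicle in UMRC2, while all 8 arrays of the FoxO lines lay between log2 5.60 and 6.21. Without subtraction of the EV response, 246 genes were past log2 1 for both isoforms in the higher direction and 272 in the lower direction, and 164 and 196 of these were also past the rule with it.

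**Figure D1:**
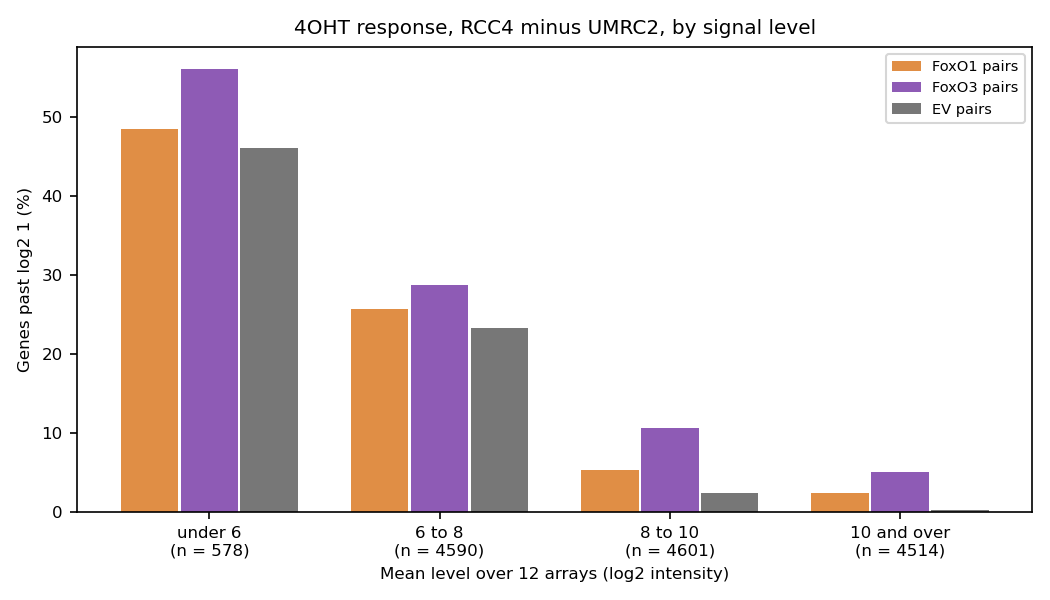
Share of genes (y axis, %) whose 4OHT response differed by log2 1 or more between RCC4 and UMRC2, in either direction, by mean level over the 12 arrays (x axis, log2 intensity; n genes in each class). Bars stand for the FoxO1, FoxO3 and EV pairs, without EV subtraction. Under log2 6 the FoxO1, FoxO3 and EV shares were 48.4%, 56.1% and 46.0%, and from log2 10 up they were 2.35%, 5.07% and 0.266%.

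Brightness set where the FoxO pairs stood apart from the EV pairs. Between log2 8 and 10, 5.28% of genes in the FoxO1 pairs and 10.5% in the FoxO3 pairs differed by log2 1 between the lines, against 2.39% in the EV pairs, as the plot of shares by signal level shows. Genes were therefore followed that were past the rule with and without EV subtraction, had an EV response under log2 1 in both lines and reached log2 8 in at least 2 arrays. These 151 clear-signal genes, a subset defined after values had been seen, comprised 65 with the higher response in RCC4 and 86 with the lower response, out of 10239 genes that met the EV and brightness conditions. With FoxO1 alone, which leaves out the RCC4 FoxO3 array with 4OHT, the clear-signal counts were 197 and 259, and the counts of the rule were 1354 (9.48%) and 1439 (10.1%).

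The balance of directions depended on how the arrays were scaled. Quantile normalisation put 47.6% of the genes past the rule on the higher side, median scaling 57.1% (833 higher and 625 lower) and the deposited values 22.4% (320 and 1108). Among clear-signal genes the higher share was 43.0%, 64.9% (85 and 46) and 27.9% (39 and 101) under the same scalings. The median line difference of all genes, averaged over the isoforms, was log2 0.01, 0.24 and -0.37 in that order. At the edge of the rule, the smaller of the FoxO1 and FoxO3 line differences was 1.0002 for APOL6 and 1.0004 for CHRM3 just inside, and 0.9975 for TCN2 and for ZNF668 just outside. On the lower side it was -1.0004 for CD79A and -1.0009 for PRUNE2 inside, and -0.9988 for PSTPIP1 and -0.9994 for ZNF680 outside.

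**Figure D2:**
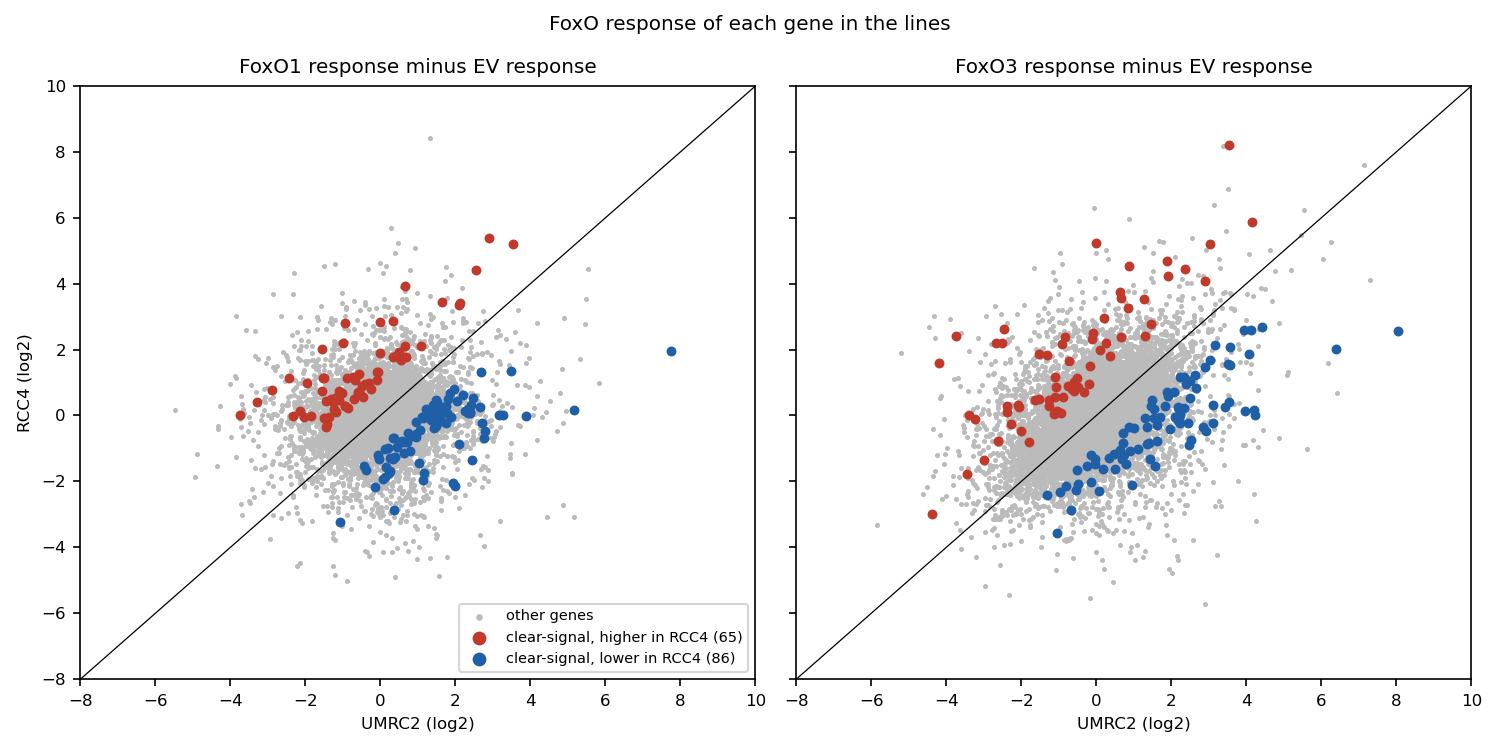
Response of each gene to FoxO1 (left) and FoxO3 (right) after EV subtraction in UMRC2 (x axis, log2) and RCC4 (y axis, log2), 1 point per gene. The 65 clear-signal genes with the higher response in RCC4 are red, the 86 with the lower response are blue, other genes are grey, and the line marks equal response. The coloured genes sit apart from the line because the rule chose them so.

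A limma fit of the 6 responses, with the FoxO1 and FoxO3 pairs of a line as its replicates, called 0 of 14283 genes for the line difference at an adjusted p of 0.05. Its unadjusted p was under 0.05 in 338 genes (2.37%). On simulated data of the same spread this fit found 0% of genes at a true difference of log2 2 and 54.5% at log2 4. A fit of the 4 FoxO pairs without the EV pairs called 49 genes (0.343%), 25 higher and 24 lower, and 1577 at an unadjusted p under 0.05. On simulated data with 200 changed genes the fit without EV pairs made 22 to 36 false calls, so its 49 calls may include false ones. Because these fits read the contrast that chose the genes, they serve as background and not as support for single genes. For FoxO against EV over both lines, the fit called 0 genes after adjustment and 1663 (11.6%) before it, and without the RCC4 FoxO1 pair it called 32.

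Among 47 measured FoxO targets, 7 had the higher response in RCC4 (14.9%, beside 4.57% of all genes) and 3 the lower response (6.38%, beside 5.03%). The higher genes were IGFBP1, DEPP1, TNFSF10, IRS2, SESN1, KLF6 and CITED2, and the lower genes were BCL2L11, KLF4 and G6PC1. The median line difference of the whole list was 0.09, and 37 of the 47 were past the rule in neither direction. IGFBP1 encodes a secreted protein that holds insulin-like growth factors and is a classical FoxO target. In RCC4, IGFBP1 stood at log2 14.17 with 4OHT and 4.35 with vehicle in the FoxO1 line, 14.62 and 5.03 in the FoxO3 line, and 5.61 and 4.20 in the EV line. The UMRC2 values of IGFBP1 were 6.38 with 4OHT and 5.44 with vehicle in the FoxO1 line, 7.21 and 4.20 in the FoxO3 line, and 4.62 and 4.99 in the EV line. Only the RCC4 FoxO arrays with 4OHT were bright, the other 10 arrays lay at or under log2 7.21, and the line difference was 7.11 for FoxO1 and 4.82 for FoxO3. Their mean was 5.96, and it lay between 3.996 with the mean of the probe sets and 7.74 without EV subtraction. IGFBP1 is not counted among the clear-signal genes because its EV response in RCC4 was log2 1.41, between values near the floor.

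**Figure D3:**
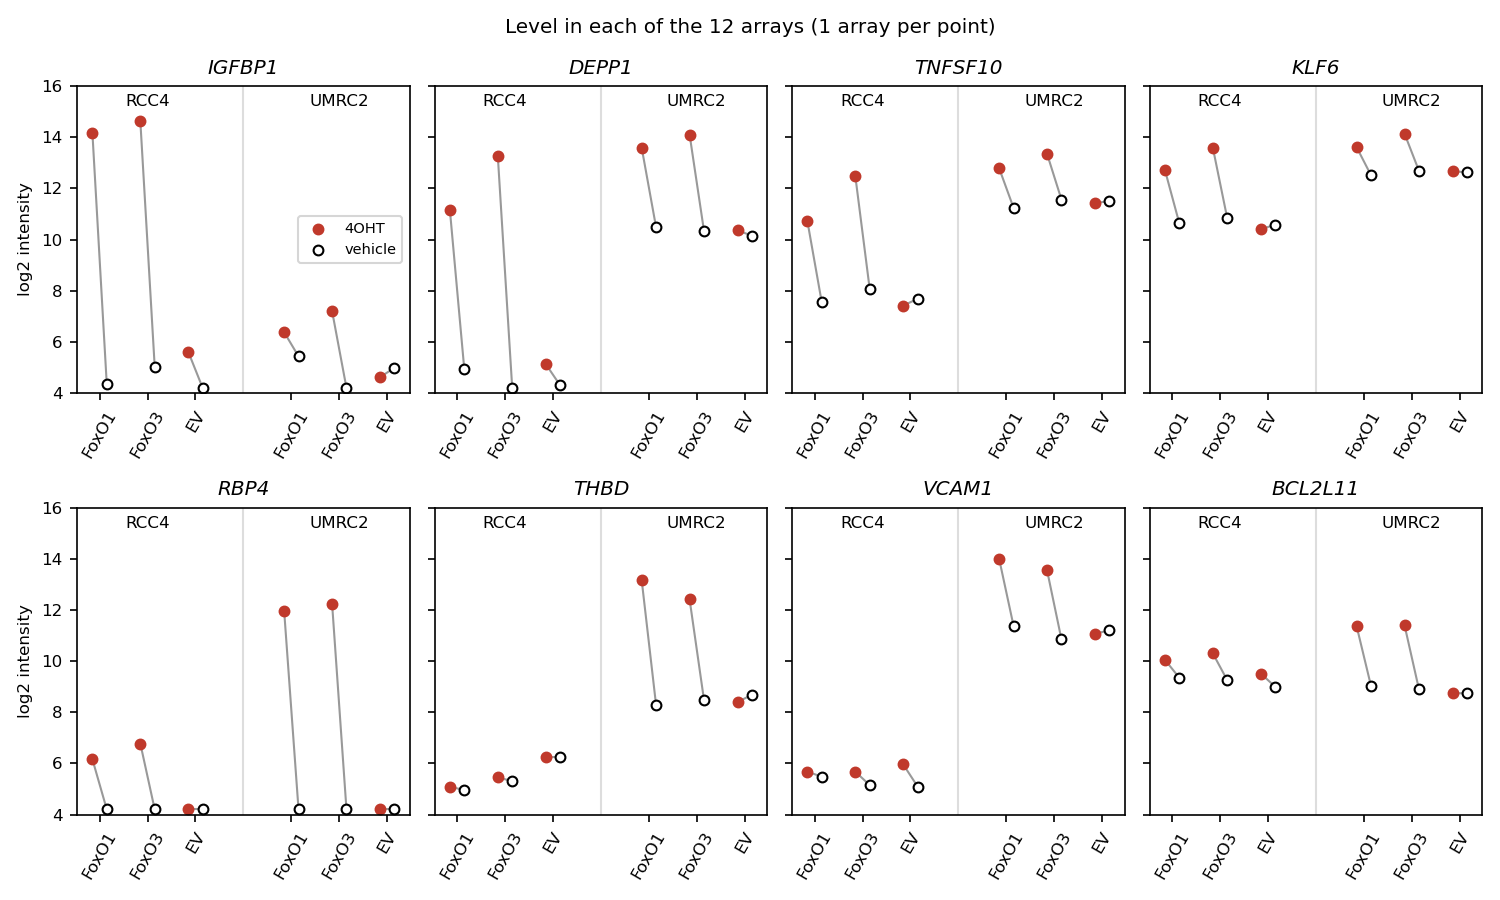
Levels of 8 genes (y axis, log2 intensity) in each of the 12 arrays, with RCC4 left and UMRC2 right of the grey line and the FoxO1, FoxO3 and EV lines along the x axis. Red points are 4OHT arrays, open points are vehicle arrays, 1 array per point, and grey lines join a pair. The upper row holds FoxO targets with the larger response in RCC4 and the lower row genes with the larger response in UMRC2, where RBP4, for example, reached 11.96 and 12.24 with 4OHT.

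DEPP1, a FoxO-induced regulator of autophagy, had its response in both lines but began from very different levels. DEPP1 in RCC4 had log2 levels of 11.15 with 4OHT and 4.94 with vehicle in the FoxO1 line, 13.25 and 4.20 in the FoxO3 line, and 5.14 and 4.30 in the EV line. DEPP1 in UMRC2 had 13.60 with 4OHT and 10.49 with vehicle in the FoxO1 line, 14.10 and 10.35 in the FoxO3 line, and 10.36 and 10.15 in the EV line. The line difference was 2.48 for FoxO1 and 4.66 for FoxO3, yet with 4OHT every RCC4 FoxO array stayed under its UMRC2 counterpart, and the gap with FoxO3 had narrowed to within log2 1. TNFSF10, the death ligand TRAIL, had the same form. TNFSF10 in RCC4 had 10.72 with 4OHT and 7.54 with vehicle in the FoxO1 line, 12.48 and 8.07 in the FoxO3 line, and 7.42 and 7.68 in the EV line. TNFSF10 in UMRC2 had 12.79 with 4OHT and 11.24 with vehicle in the FoxO1 line, 13.35 and 11.56 in the FoxO3 line, and 11.41 and 11.51 in the EV line. The 4 RCC4 arrays without activated FoxO were under log2 8.1, whereas every UMRC2 array was above log2 11, and the line difference was 1.80 for FoxO1 and 2.79 for FoxO3.

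IRS2, an adaptor that carries the insulin signal and is a FoxO target in liver, responded mainly to FoxO3 in RCC4. IRS2 in RCC4 had log2 levels of 9.26 with 4OHT and 8.87 with vehicle in the FoxO1 line, 12.38 and 9.25 in the FoxO3 line, and 9.02 and 8.87 in the EV line. IRS2 in UMRC2 had 12.15 with 4OHT and 13.09 with vehicle in the FoxO1 line, 13.28 and 13.17 in the FoxO3 line, and 13.05 and 13.13 in the EV line. In UMRC2 its FoxO1 array with 4OHT was the lowest of the 6 and the others were close together near log2 13, and the line difference was 1.09 for FoxO1 and 2.78 for FoxO3. SESN1, a sestrin that restrains mTORC1, gave responses after EV subtraction of 1.32 and 3.57 to FoxO1 and FoxO3 in RCC4, against -0.10 and 0.66 in UMRC2. KLF6, a zinc finger factor, gave 2.25 and 2.92 in RCC4 against 1.07 and 1.42 in UMRC2. CITED2, a transcriptional coregulator that opposes hypoxia-inducible factor, gave 2.25 and 2.90 against 1.17 and 1.502 in the same order, with a mean line difference of 1.24, which was under the threshold at 0.52 with the mean of its probe sets. For all 3 genes the 4OHT response was positive with both fusions in RCC4, and the gap with FoxO1 was at most log2 1.43.

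BCL2L11, the pro-death BH3-only protein BIM, went the other way. BCL2L11 in RCC4 had 10.05 with 4OHT and 9.35 with vehicle in the FoxO1 line, 10.30 and 9.25 in the FoxO3 line, and 9.51 and 8.997 in the EV line. BCL2L11 in UMRC2 had 11.36 with 4OHT and 9.02 with vehicle in the FoxO1 line, 11.39 and 8.90 in the FoxO3 line, and 8.75 and 8.74 in the EV line. The vehicle levels were close, at 9.20 ± 0.18 in RCC4 and 8.89 ± 0.14 in UMRC2 (SD, n = 3 constructs), while the UMRC2 FoxO arrays with 4OHT stood above all other arrays, and the line difference was -2.14 for FoxO1 and -1.96 for FoxO3. Of 25 death genes, TNFSF10 was thus on the higher side and BCL2L11, HRK and TNFRSF10D were on the lower side (4.00% and 12.0% of the list, beside 4.57% and 5.03% of all genes), with a list median of -0.02.

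The direction of response in each line separated the 65 clear-signal genes that were higher in RCC4 into groups. In 16 the response was past log2 1 for both isoforms in RCC4 only and positive, and in 20 it was past log2 -1 in UMRC2 only and negative. Of all 10239 genes that met the EV and brightness conditions, 78 (0.762%) and 219 (2.14%) were in these classes. Another 6 responded upward in both lines or downward in both, 2 had opposite responses, and 21 were past log2 1 for both isoforms in neither line. DUSP1, a MAP kinase phosphatase, belonged to the first group. DUSP1 in RCC4 had 12.22 with 4OHT and 10.65 with vehicle in the FoxO1 line, 12.37 and 10.76 in the FoxO3 line, and 10.39 and 10.57 in the EV line. DUSP1 in UMRC2 had 14.10 with 4OHT and 13.66 with vehicle in the FoxO1 line, 13.92 and 13.58 in the FoxO3 line, and 13.45 and 13.47 in the EV line. Its RCC4 FoxO arrays with 4OHT stayed under every UMRC2 array, and the line difference was 1.31 for FoxO1 and 1.44 for FoxO3. RAB27B, a small GTPase of secretory vesicles, gave 2.21 and 2.18 to FoxO1 and FoxO3 in RCC4, from levels at or near the floor, against -0.99 and -0.92 in UMRC2. Its mean line difference of 3.15 was 1.23 with the floor at the 40th percentile and 1.22 with the mean of its probe sets. ARID5B, a chromatin-binding transcriptional coactivator, gave 4.42 and 5.21 against 2.56 and 3.02, positive in both lines. Its mean line difference was 2.02 with the brightest probe set and -0.84 with the mean of its probe sets, so its direction rests on the probe set.

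CRISPLD2, a secreted glycoprotein, is an example of those with a negative response in UMRC2 only. CRISPLD2 in RCC4 had 8.80 with 4OHT and 7.52 with vehicle in the FoxO1 line, 7.14 and 7.08 in the FoxO3 line, and 7.45 and 7.14 in the EV line. CRISPLD2 in UMRC2 had 9.27 with 4OHT and 11.31 with vehicle in the FoxO1 line, 9.25 and 11.60 in the FoxO3 line, and 12.05 and 12.13 in the EV line. The UMRC2 FoxO arrays with 4OHT were the lowest of that line and still above every RCC4 array, of which the FoxO1 array with 4OHT was the highest. The mean line difference of CRISPLD2 was 2.48, and 1.01 with the mean of its probe sets. LYPD1, a membrane-anchored Ly6 family protein, was at the floor of log2 4.20 in all 6 RCC4 arrays, so no decrease could be seen there. In UMRC2 its levels were 4.45 with 4OHT and 8.03 with vehicle in the FoxO1 line, 4.20 and 7.42 in the FoxO3 line, and 8.01 and 7.84 in the EV line. The mean line difference of LYPD1 was 3.57, and 1.93 with the floor at the 40th percentile. IRX3, a homeobox factor of the developing nephron, gave 0.49 and 0.28 to FoxO1 and FoxO3 in RCC4 and -1.31 and -2.37 in UMRC2. The 2 genes with opposite responses were PHLDA1 and KCTD4. PHLDA1, a pleckstrin-homology-like protein induced by growth factor signalling, had 8.31 with 4OHT and 6.96 with vehicle in the FoxO1 line, 9.58 and 7.502 in the FoxO3 line, and 7.37 and 7.14 in the EV line in RCC4. PHLDA1 in UMRC2 had 10.33 with 4OHT and 11.84 with vehicle in the FoxO1 line, 10.497 and 11.77 in the FoxO3 line, and 11.65 and 11.62 in the EV line. The lines thus came closer together with either fusion, but 1 of 4 other bright PHLDA1 probe sets had the opposite sign, and the mean line difference was 2.91, against 1.87 with the mean of the probe sets. CYP26A1, an enzyme that breaks down retinoic acid, was past the rule at 4.78 for FoxO1 and 4.43 for FoxO3 and was bright in RCC4 only, with 9.10 with 4OHT and 5.88 with vehicle in the FoxO1 line, 9.32 and 5.82 in the FoxO3 line, and 6.75 and 7.98 in the EV line, and its EV pair itself differed by log2 -1.24.

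Many genes with the lower response in RCC4 responded upward in UMRC2. Of the 86 clear-signal genes, 48 (55.8%) had a positive response past log2 1 for both isoforms in UMRC2 only, 15 (17.4%) a negative one in RCC4 only, 3 the same sign in both lines and 20 were past it in neither. The rule leaves lower genes no other class with a response in only 1 line. Of all 10239 genes that met the EV and brightness conditions, 228 (2.23%) were positive in UMRC2 only and 83 (0.811%) negative in RCC4 only, so UMRC2 responders were also the more common there. RBP4, the retinol carrier of plasma, had the largest such gap among them. In vehicle and EV arrays of both lines RBP4 was at the floor throughout. With 4OHT, RBP4 stood at 6.16 in RCC4 FoxO1 and 6.78 in RCC4 FoxO3, against 11.96 in UMRC2 FoxO1 and 12.24 in UMRC2 FoxO3. The line difference was -5.80 for FoxO1 and -5.47 for FoxO3, with 4 of 6 arrays of each line at the floor, and its mean was -5.63, or -2.82 with the mean of its probe sets. THBD, thrombomodulin, which turns thrombin toward activating protein C, had 5.09 with 4OHT and 4.96 with vehicle in the FoxO1 line, 5.45 and 5.31 in the FoxO3 line, and 6.24 and 6.26 in the EV line in RCC4. THBD in UMRC2 had 13.18 with 4OHT and 8.30 with vehicle in the FoxO1 line, 12.41 and 8.49 in the FoxO3 line, and 8.40 and 8.68 in the EV line. No RCC4 array of THBD passed log2 6.3, and the line difference was -5.004 for FoxO1 and -4.03 for FoxO3.

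The list of NF-kB driven genes had members past the rule on both sides, with more on the lower side. Of 27 measured NF-kB driven chemokines and cytokines, 5 had the lower response in RCC4 (CCL2, CSF1, CXCL8, LCN2 and VCAM1, 18.5% beside 5.03% of all genes) and 2 the higher response (CCL5 and PTX3, 7.41% beside 4.57%). Clear-signal genes among them were 3 lower ones and 1 higher one. The list median was -0.43, beside 0.01 over all genes, and lay between -0.91 and -0.24 over the alternatives run, with the deposited values at the low end. VCAM1, the vascular cell adhesion molecule, had 5.68 with 4OHT and 5.48 with vehicle in the FoxO1 line, 5.68 and 5.15 in the FoxO3 line, and 5.96 and 5.09 in the EV line in RCC4. VCAM1 in UMRC2 had 13.99 with 4OHT and 11.38 with vehicle in the FoxO1 line, 13.54 and 10.85 in the FoxO3 line, and 11.06 and 11.20 in the EV line. All RCC4 arrays of VCAM1 were under log2 6, and the UMRC2 FoxO arrays with 4OHT stood at least log2 2.1 above the rest of their line, for a line difference of -3.42 for FoxO1 and -3.18 for FoxO3. CXCL8, the neutrophil attractant interleukin-8, gave 0.00 and 0.26 to FoxO1 and FoxO3 in RCC4, against 1.56 and 3.44 in UMRC2. CSF1, the macrophage colony-stimulating factor, was bright in both lines. CSF1 in RCC4 had 8.89 with 4OHT and 9.66 with vehicle in the FoxO1 line, 9.55 and 9.62 in the FoxO3 line, and 9.46 and 9.15 in the EV line. CSF1 in UMRC2 had 11.79 with 4OHT and 10.41 with vehicle in the FoxO1 line, 12.16 and 10.56 in the FoxO3 line, and 10.54 and 9.95 in the EV line. The line difference was -1.87 for FoxO1 and -1.38 for FoxO3, and 1 of 3 other bright CSF1 probe sets had the opposite sign. Its mean was -1.63, and -1.07 with the mean of the probe sets.

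TGF-beta and SMAD genes past the rule were on the lower side. Of 26 measured, 4 had the lower response in RCC4 (BMP2, ID3, INHBA and TGFBR2, 15.4% beside 5.03% of all genes), all 4 clear-signal genes, and 0 the higher response, with a list median of -0.45 that lay between -0.76 with the deposited values and -0.15 with median scaling. TGFBR2, the type II TGF-beta receptor, had 10.43 with 4OHT and 10.35 with vehicle in the FoxO1 line, 10.57 and 10.25 in the FoxO3 line, and 10.44 and 10.42 in the EV line in RCC4. TGFBR2 in UMRC2 had 11.10 with 4OHT and 9.98 with vehicle in the FoxO1 line, 11.26 and 9.89 in the FoxO3 line, and 10.10 and 10.19 in the EV line. Its RCC4 levels lay within log2 0.4 of each other, and the UMRC2 FoxO arrays with 4OHT were the highest of all 12. Its mean line difference was -1.15, and -0.85 under median scaling, which moved the median of all genes to 0.24. ID3, an inhibitor of DNA binding that BMP signals induce, gave -0.04 and -1.06 to FoxO1 and FoxO3 in RCC4, against 1.11 and 0.63 in UMRC2. INHBA, the activin A subunit, and BMP2, a bone morphogenetic protein, were dim in RCC4 and bright in UMRC2. INHBA gave -0.04 and -0.47 in RCC4 against 1.36 and 2.92 in UMRC2, a mean line difference of -2.40 that was -4.12 with the floor at the 10th percentile. BMP2 gave 0.27 and 2.14 in RCC4, where 3 of 6 arrays were at the floor, against 2.66 and 3.18 in UMRC2, a mean line difference of -1.71 that was -3.46 with the deposited values.

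Other lower genes began from the higher level in RCC4. CEBPB, a leucine zipper factor of inflammation and differentiation, had 12.48 with 4OHT and 12.52 with vehicle in the FoxO1 line, 11.60 and 12.497 in the FoxO3 line, and 12.71 and 12.70 in the EV line in RCC4. CEBPB in UMRC2 had 12.97 with 4OHT and 11.14 with vehicle in the FoxO1 line, 13.44 and 11.004 in the FoxO3 line, and 10.95 and 10.99 in the EV line. Vehicle levels averaged 12.57 ± 0.11 in RCC4 and 11.04 ± 0.08 in UMRC2 (SD, n = 3 constructs; limma adjusted p = 1.49e-05), and with 4OHT the UMRC2 FoxO arrays were above the RCC4 ones. COL12A1, a fibril-associated collagen, repeated this. COL12A1 in RCC4 had 10.12 with 4OHT and 10.25 with vehicle in the FoxO1 line, 10.13 and 10.21 in the FoxO3 line, and 10.47 and 10.14 in the EV line. COL12A1 in UMRC2 had 11.36 with 4OHT and 8.52 with vehicle in the FoxO1 line, 10.47 and 8.45 in the FoxO3 line, and 8.57 and 8.52 in the EV line. NTN4, a secreted netrin, responded upward in both lines, with 1.34 and 2.02 to FoxO1 and FoxO3 in RCC4 against 3.48 and 6.38 in UMRC2. KCNE4, a regulatory subunit of potassium channels, had a negative response in RCC4 only. KCNE4 in RCC4 had 10.70 with 4OHT and 12.17 with vehicle in the FoxO1 line, 8.45 and 12.04 in the FoxO3 line, and 12.004 and 12.02 in the EV line, so that only the FoxO arrays with 4OHT were low. In UMRC2 no KCNE4 array passed log2 6.7. FGFR3, a fibroblast growth factor receptor, was among the leading lower genes at -4.84 for FoxO1 and -4.59 for FoxO3, with a mean of -4.72 that was -1.67 without EV subtraction, but its UMRC2 EV pair stood at 4.20 with 4OHT and 7.22 with vehicle, and its line difference in the EV pairs alone was 3.05.

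None of 40 G1/S and DNA replication genes, 40 G2/M and mitosis genes, 17 cell cycle inhibitors, 13 fatty acid synthesis genes, 39 autophagy and lysosome genes, 24 NRF2 targets or 35 oxidative phosphorylation subunits was past the rule in either direction. The rule takes 4.57% and 5.03% of all genes, and only 1.53% in both directions together at a mean level of log2 10 and over, so a count of 0 in lists of this size is near the background and nothing is read from it. Under FoxO3 the median response of the G1/S list was -1.29 in RCC4 and -1.24 in UMRC2, and that of the G2/M list was -1.10 in both. Under FoxO1 the G1/S median was -0.30 in RCC4 and -0.63 in UMRC2, and the G2/M median was 0.02 in RCC4 and -0.06 in UMRC2. CCND1, cyclin D1, which the study used to choose its time point, had a response after EV subtraction of -1.72 and -2.55 to FoxO1 and FoxO3 in RCC4 and -2.26 and -2.61 in UMRC2. CDKN1B, which encodes p27, a brake on cyclin-dependent kinases, gave 0.55 and 1.51 in RCC4 and 0.60 and 1.76 in UMRC2. The line differences of CCND1 and CDKN1B were at most log2 0.54 in size. For some genes the isoforms gave different signs: the line difference of SLC40A1, the iron exporter, was -1.37 for FoxO1 and 0.71 for FoxO3, and that of SESN3, a sestrin, was -1.77 for FoxO1 and 3.48 for FoxO3. Isoform, fusion level and spike-in level cannot be told apart here.

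**Figure D4:**
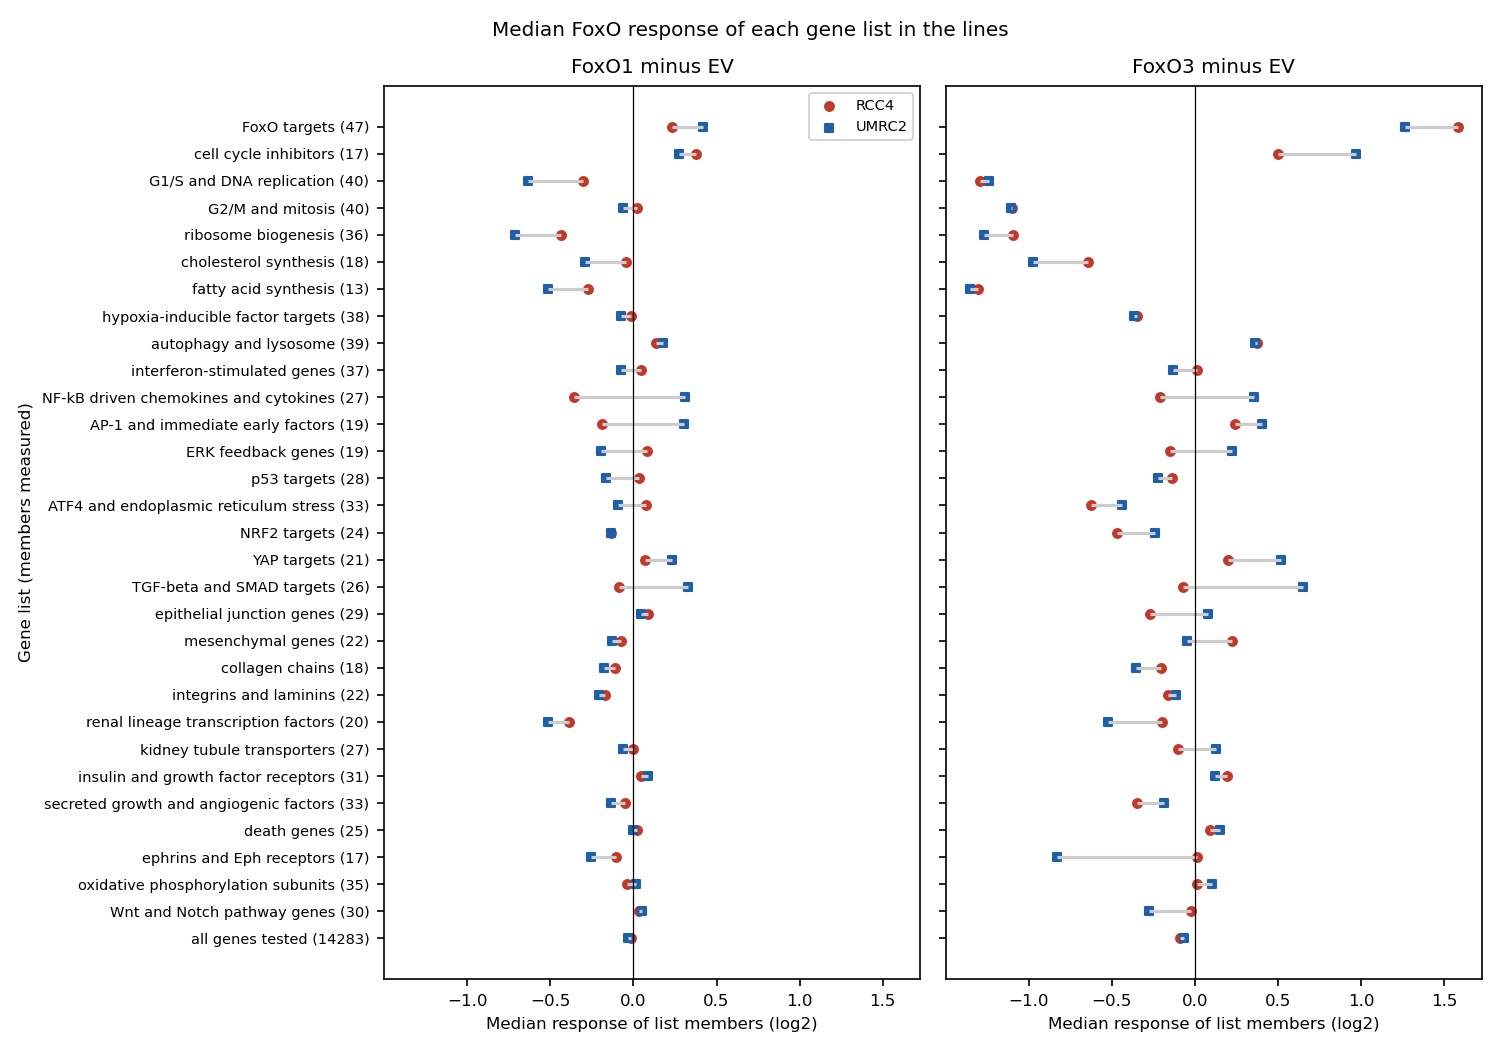
Median response after EV subtraction (x axis, log2) of the measured members of 30 gene lists and of all genes tested, for FoxO1 (left) and FoxO3 (right), with RCC4 as red circles and UMRC2 as blue squares. The number of measured members is in brackets. The chemokine and TGF-beta lists lie further right in UMRC2 for both isoforms, while the G2/M medians under FoxO3 coincide at -1.10.

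The plot of list medians also shows ephrins and renal transcription factors, whose median line difference changed sign with the scaling. Of 17 ephrins and Eph receptors, 4 ligand genes (EFNA2, EFNA3, EFNA4 and EFNB1) had the higher response in RCC4 and the receptor gene EPHB3 the lower one (23.5% and 5.88%, beside 4.57% and 5.03% of all genes), with a median of 0.074 for FoxO1 and 0.35 for FoxO3. The median of the mean line difference was 0.50 that became -0.24 with the deposited values. Of 20 renal lineage transcription factors, IRX3, IRX5 and POU3F3 were on the higher side and GATA3 and HNF4G on the lower side (15% and 10.0%, beside 4.57% and 5.03% of all genes), with a median of 0.43 that became -0.062 with the deposited values. POU3F3, a POU factor of the nephron, gave 0.65 and 1.02 to FoxO1 and FoxO3 in RCC4 and -0.60 and -0.59 in UMRC2. Without EV subtraction no list had a median of the mean line difference past log2 0.4 in size.

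The line difference was set beside the level of each gene without 4OHT, taken as the mean of the 3 vehicle arrays of a line. In these arrays limma called 3802 genes higher in RCC4 (26.6%) and 3377 lower (23.6%). Genes with the higher FoxO response in RCC4 were at least log2 1 lower there in vehicle in 159 of 653 cases (24.3%) and higher in 79 (12.1%), beside 11.1% and 8.91% of all genes tested. For the lower-response genes the counts were 103 of 719 (14.3%) and 121 (16.8%). In the clear-signal genes the shares were further apart. Of the 65 with the higher response, 51 (78.5%) were lower in RCC4 in vehicle and 7 were higher, with a median vehicle difference of -2.76, beside 11.1% and 8.19% of the 10239 genes that could have qualified. Part of this share is built in by the brightness condition, which a gene could meet in UMRC2 alone: 24 of the 51, LYPD1 among them, never reached log2 8 in RCC4, and 76.4% of the 538 qualifying genes bright in UMRC2 only were lower in RCC4 in vehicle. Of the 36 higher genes that reached log2 8 in both lines, 27 (75%) were lower in RCC4 in vehicle, beside 7.86% of the 9266 qualifying genes bright in both. With FoxO1 alone the share was 46.2% of 197 genes, with median scaling 63.5% of 85 and with the deposited values 61.5% of 39.

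**Figure D5:**
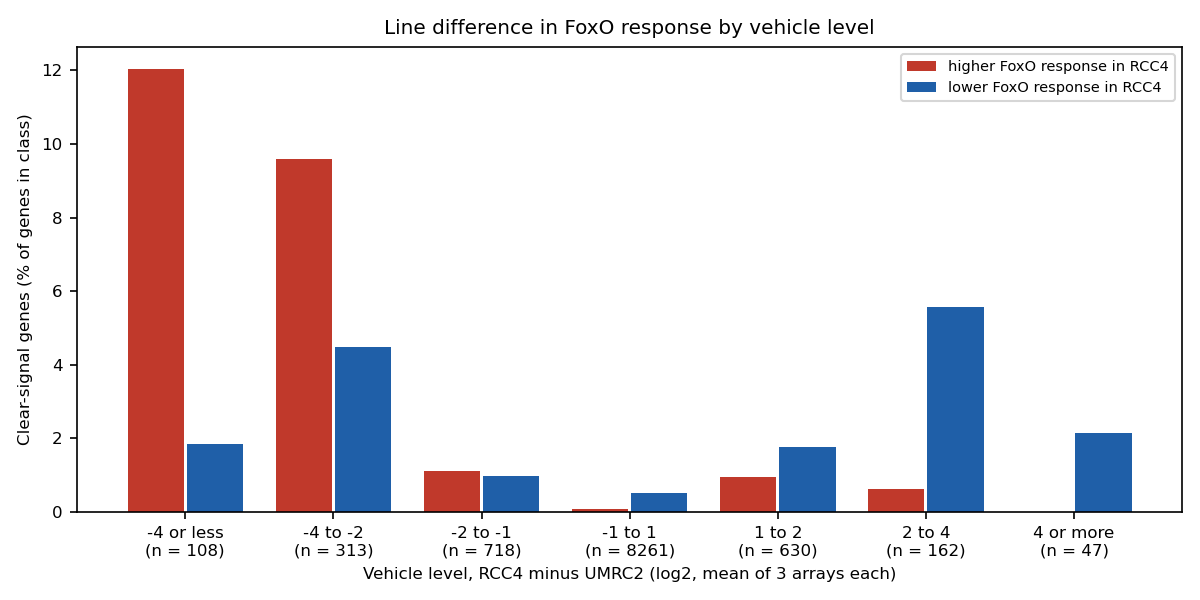
Share of genes (y axis, %) that were clear-signal genes with the higher (red) or lower (blue) FoxO response in RCC4, by the difference in mean vehicle level between RCC4 and UMRC2 (x axis, log2, 3 vehicle arrays per line; n genes per class). At -4 or less, 12.0% of genes had the higher response, and between -1 and 1, 7 of 8261 did. For the lower response the share was 4.47% at -4 to -2, 0.508% at -1 to 1 and 5.56% at 2 to 4.

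The lower response divided otherwise, a contrast that was not tested. Of 86 clear-signal genes with the lower response, 23 (26.7%) were lower in RCC4 in vehicle and 21 (24.4%) higher, with a median difference of -0.03. The brightness condition enters this split too: 18 of the 23 were bright in UMRC2 arrays only, and 9 of the 21 in RCC4 arrays only. Of the 47 lower genes bright in both lines, 5 (10.6%) were lower in RCC4 in vehicle and 12 higher. The shares of qualifying genes bright in both were 7.86% and 6.45%. Here, too, a line could count as bright through its 4OHT arrays alone. Where the vehicle level in RCC4 was log2 4 or more below that in UMRC2, 13 of 108 genes were clear-signal higher genes and 2 were lower ones. Between -4 and -2 the counts were 30 higher and 14 lower (4.47%) of 313. Between -1 and 1 the counts were 7 higher and 42 lower (0.508%) of 8261. Between 2 and 4 they were 1 higher and 9 lower (5.56%) of 162, and at 4 or more 0 higher and 1 lower of 47. The lower genes were thus also a larger share away from equal vehicle levels, on both sides. The vehicle arrays of the fusion lines also enter the responses, so an array error in them could tie both quantities, while in the rule itself the weights of a line's 3 vehicle arrays sum to 0.

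The gap between the fusion lines is given as a description, since its change with 4OHT is the line difference without EV subtraction, which chose the genes. The median gap between the fusion lines, RCC4 minus UMRC2, was -0.97 with 4OHT and -2.92 with vehicle over the 65 clear-signal higher genes, and it was narrower with 4OHT in 53 of them. Over the 86 lower genes the median gap was -1.51 with 4OHT and 0.01 with vehicle, narrower in 27. Among all 10239 qualifying genes 49.8% were narrower. Vehicle levels of the genes described above show the contrast: DEPP1 averaged 4.48 ± 0.40 in RCC4 and 10.33 ± 0.17 in UMRC2, TNFSF10 7.77 ± 0.27 in RCC4 and 11.44 ± 0.17 in UMRC2 and CRISPLD2 7.25 ± 0.24 in RCC4 and 11.68 ± 0.41 in UMRC2 (SD, n = 3 constructs; limma adjusted p = 1.44e-06, 1.6e-06 and 1.82e-05). On the lower side THBD averaged 5.51 ± 0.67 in RCC4 and 8.49 ± 0.19 in UMRC2 and VCAM1 5.24 ± 0.21 in RCC4 and 11.14 ± 0.27 in UMRC2 (SD, n = 3 constructs; limma adjusted p = 0.000103 and 1.36e-06), and both were lower in RCC4 as well. The SD and the limma p-values rest on the spread between 3 engineered lines and not on repeat cultures of 1 line.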

How the data were processed

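The deposited table of 12 arrays holds linear probe set intensity values. Per the submitters' processing notes the authors made them with MAS5; the scaling target is not given in the sources used here. Arrays were quantile-normalised, values under the 20th percentile (intensity 18.4, log2 4.20) were raised to it, and log2 was taken. Of 54675 probe sets, 62 were controls, 41091 had 1 gene symbol, 1801 had several and 11721 had none. The brightest probe set stood for each of 19775 genes, and the 14283 of these at or above the median of all arrays in 2 or more arrays were tested. limma 3.58.1 (R 4.3.3) with a trended prior gave two-sided p-values, Benjamini-Hochberg adjusted over these genes. Residual degrees of freedom were 2 for the line difference, 1 without EV pairs, 2 for vehicle and 3 for FoxO against EV. Fits were tested on simulated data: 200 changed genes were recovered at log2 1, 2 and 4 in 0%, 0% and 54.5% for the line difference, and 73%, 95% and 100% for vehicle. Without EV pairs the recovery was 55%, 83% and 98%. False calls in the same order numbered 0, 0 and 3 for the line difference and 11, 13 and 26 for vehicle. Without EV pairs they numbered 22, 36 and 34.

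The comparison, its 30 gene lists and the named genes were chosen with earlier results of these data known. Named genes were the largest line differences without opposing bright probe sets, EV-driven genes, up to 4 members per list, genes at the threshold, genes with opposite responses and known FoxO targets; CRISPLD2, LYPD1, RAB27B, ARID5B, THBD, COL12A1, NTN4, KCNE4 and other clear-signal genes were chosen after their values were seen. Alternatives covered scaling, floor, filter, probe set, threshold, prior, EV subtraction and leaving out arrays.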

Additional observations from a re-analysis of the deposited data

Results flagged for a closer look

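In 69 of 14283 genes tested (0.483%) both RCC4 FoxO responses went one way and both UMRC2 FoxO responses the other, all past log2 1 after EV subtraction, and 22 of these were singled out by the rule for named genes. Among the 10239 genes that met the EV and brightness conditions there were 2 (0.0195%). Both isoforms share the EV pair of a line, so opposite EV shifts alone can give this pattern. MYOZ3 is such a case, since its arrays of the FoxO lines lay close together. The difference was not tested, and no array was repeated. The mean line difference was 2.91 for PHLDA1 and 4.34 for KCTD4, the only clear-signal genes among them. Of the rest, those with the higher response in RCC4 were FAM178B (6.77), SUGT1P1 (6.35), KCNA6 (6.15), ZNF84-DT (5.56), KCNIP2-AS1 (4.93), LRRC4C (4.65), BCDIN3D-AS1 (4.39), FBXW8 (3.99), ZNF414 (3.88) and MYOZ3 (3.94). Those with the lower response were RNF5 (-7.05), CSPG4P5 (-6.56), EPHB3 (-6.23), HS6ST3 (-5.82), PLA2G2A (-5.77), FABP4 (-5.36), SLC9A9 (-5.20), MUC12-AS1 (-4.93), LOC101927798 (-4.001) and LCN2 (-2.36). For ZNF84-DT, too, the EV pairs themselves moved apart, at 4.20 with 4OHT and 6.68 with vehicle in RCC4 and 6.78 with 4OHT and 4.20 with vehicle in UMRC2.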

How the results depend on the processing

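The limits are those of single arrays: no combination was repeated, genes under log2 6 differed by log2 1 between the lines in 48.4% of cases in the FoxO1 pairs and 56.1% in the FoxO3 pairs, against 46.0% in the EV pairs, and scaling set the balance of directions. Without EV subtraction the counts of higher and lower genes were 246 and 272, and limma called 49 genes for the line difference, 25 higher and 24 lower. A threshold of log2 1.5 gave 335 and 349, and one of log2 0.5 gave 1628 and 1631. FoxO1 alone gave 1354 and 1439 genes, or 197 and 259 with clear signal, and FoxO3 alone gave 1599 and 1722, against 65 and 86 clear-signal genes for both isoforms. With the deposited values the counts were 320 and 1108, and 39 clear-signal genes were higher, while median scaling left 46 clear-signal lower genes and averaging all probe sets of a gene left 55. Without the filter on dim genes the counts were 1222 and 1315, and with the array median reached in at least 6 arrays 412 and 476. limma called 1 gene for the line difference with the deposited values.

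Of the higher-response genes, the share with the vehicle level lower in RCC4 by log2 1 was 44.7% without EV subtraction and 15.5% without the filter, and the share with it higher was 8.13% without EV subtraction, 25.6% as deposited, 5.68% with the floor at the 40th percentile and 9.002% without the filter. Of the lower-response genes, the vehicle level was lower in RCC4 in 11.8%, 8.48%, 9.12% and 9.81%, and higher in 33.1%, 31.6%, 13.2% and 11.9%, without EV subtraction, as deposited, with the 40th percentile floor and without the filter. For clear-signal higher genes the share lower in vehicle was 46.2% with FoxO1 alone, 63.5% with median scaling and 61.5% as deposited, and for lower genes as deposited it was 15.8% lower and 48.5% higher.

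For FoxO against EV over both lines, limma called 212 genes as deposited, and 1 gene each with median scaling, the 40th percentile floor and the mean of probe sets. Leaving out each of the 6 pairs in turn it called 0 to 32 genes, the 32 without the RCC4 FoxO1 pair. For the line difference only the 4 FoxO pairs were left out in turn, and it called 0 genes each time, with 224 to 564 at an unadjusted p under 0.05. For the vehicle comparison, leaving out 1 array gave 5804 to 6561 called genes; with construct as a term, dropping an array also removes the weight of its partner. Gene lists with a median past log2 0.4 in size numbered 0 without EV subtraction and with the floor at the 10th percentile, 12 with median scaling and 9 as deposited. Reversed medians, as deposited, were -0.062 for renal transcription factors and -0.24 for ephrins, and ARID5B was -0.84 with the mean of its probe sets. Of 296 values for 37 genes over 8 settings, 292 kept the sign. The settings that changed only the filter on dim genes cannot alter a gene's own value. Their values kept the sign by construction and say nothing of stability. Of the 4 with the opposite sign, 1 belonged to ARID5B, and 3 to genes not past the rule: CCND1 (-0.13 as deposited), CDKN1B (0.23 with median scaling) and TPPP (0.55 with the 40th percentile floor). Among the 33 genes past the rule, 13 moved by over 1.5 times under at least 1 setting. The cause of these shifts was not tested. Each response is a difference within a 4OHT and vehicle pair, so the fits of responses are paired in that sense. No combination was repeated, so there was no replicate to block on beyond this.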
